A study of Equus caballus with 22 samples.

Results

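WNT2 and RSPO3, which encode 2 secreted proteins of the Wnt pathway, were followed through the endometrium of mares at day 8 and day 12, with and without pregnancy. Every non-control probe of the array whose transcript identifier is a horse RefSeq transcript of either gene was taken, whatever its values. This gave 3 of 43603 probes: A_69_P001326 for WNT2, and A_69_P000486 (probe 1) and A_69_P000487 (probe 2) for RSPO3. The pair make up 2 of the 675 genes that the RefSeq identifiers of the array name. All 3 probes were well above background on 22 of 22 arrays.

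The study asked which endometrial transcripts differ with pregnancy at each day, using 1-colour Agilent horse arrays. At day 12, 6 warmblood mares each gave a biopsy in pregnancy, taken once the embryo had been recovered, and a control biopsy at the matching stage without pregnancy. At day 8, 5 warmblood mares gave the same pair. The labels state no age for the mares, nor whether a mare number denotes the same animal at both days. A biopsy is a mixture of epithelium, stroma, vessels and immune cells, so that fewer cells of a type and less RNA per cell cannot be told apart in any value given here.

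WNT ligands bind Frizzled and LRP receptors at the cell surface and, in the canonical branch of the pathway, let beta-catenin build up and switch on target genes. R-spondins such as RSPO3 are not WNTs: they bind LGR receptors and the ubiquitin ligases ZNRF3 and RNF43, which otherwise remove Frizzled from the membrane, and thereby make a cell more responsive to WNT ligands. In the uterus the pathway is known for its part in gland development and in signalling between stroma and epithelium, and WNT2 and R-spondins are typically made by stromal cells of many organs.

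The 75th percentile of spot intensity ranged from 577 to 1863 units between arrays, and 74.2% to 92.9% of spots were well above background. A level is the log2 intensity of a probe minus the log2 of that percentile, so that a level of 0 equals it and negative levels lie below. A change is the pregnant minus the control level of the same mare. The precision of every comparison is limited by the number of mares. Mare 5 of day 12 stood apart in RSPO3, and less evenly across scalings in WNT2, as the values below show. The results that change most with it are given with and without it.

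RSPO3 was measured clearly above the detection limit. The intensity of probe 1 ranged from 67.3 to 550 units, and its level lay 4.08 to 6.72 log2 above the lowest level called well above background on the same array. WNT2 gave a faint signal, with an intensity of 9.08 to 44.1 units (median 14.8), and lay 1.28 to 3.03 log2 above that limit. A change of WNT2 therefore rests on far fewer intensity units than one of RSPO3.

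RSPO3 stood higher in the pregnant than in the control sample of 5 of 6 mares at day 12. The level of probe 1 in control endometrium at day 12 had a lowest value of -3.92, a median of -3.16 and a highest value of -1.49 (mean -2.88 ± 0.86, SD, n = 6). In pregnant endometrium at day 12 the lowest was -2.88, the median -2.41 and the highest -1.58 (mean -2.40 ± 0.46, SD, n = 6). The ranges overlap: the highest control value, that of mare 5, exceeded every pregnant value, and the lowest pregnant value was also that of mare 5. Within mares the change of probe 1 was 0.67 in mare 1, 0.69 in mare 2, 1.11 in mare 3, 0.89 in mare 4, -1.39 in mare 5 and 0.86 in mare 6. Thus 5 mares lay close together, between 1.60-fold and 2.16-fold, and mare 5 lay in the opposite direction at 0.382-fold. Of all 38203 probes with a change in each mare at day 12, 14% were higher in at least 5 of the 6 mares, and 2.25% in all 6.

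**Figure D1:**
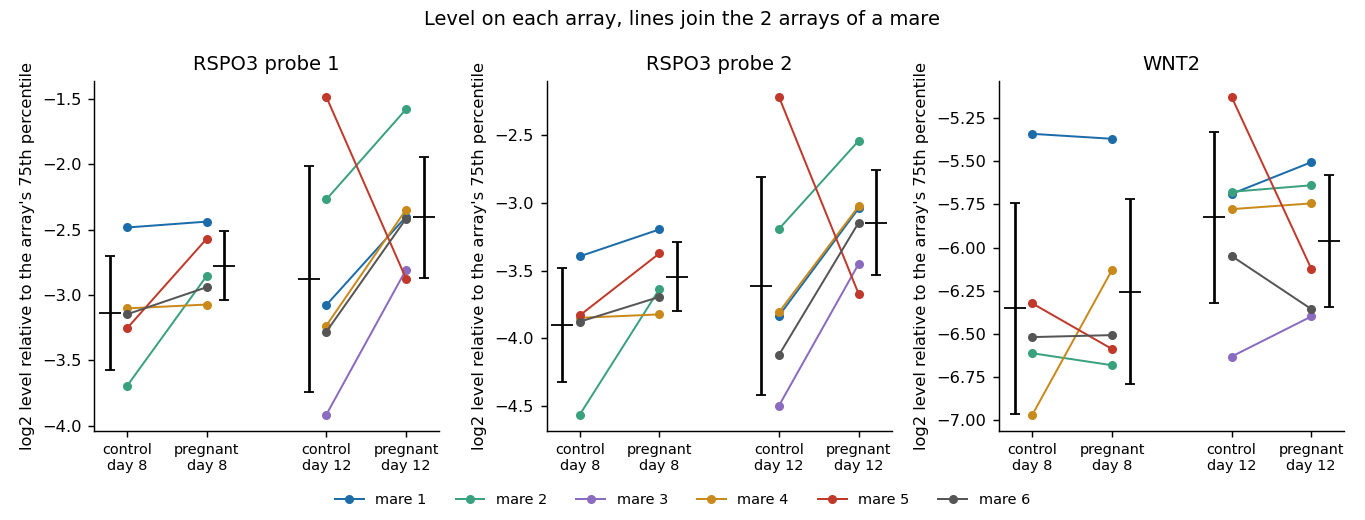
Log2 level (vertical axis, 0 at the array's 75th percentile) for both RSPO3 probes and WNT2, with 5 mares at day 8 and 6 at day 12 and a line joining the control and pregnant array of a mare; black bars give the group mean and SD. The RSPO3 lines run upwards in all mares except mare 5 of day 12, which goes from -1.49 to -2.88 with probe 1, while most WNT2 lines are nearly flat.

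Across the 6 mares the pregnancy effect on RSPO3 did not pass the test. It was 0.47 ± 0.27 log2 (SE, 95% interval -0.12 to 1.07) with probe 1, with an adjusted p of 0.517 in limma over all probes tested, a fit in which 102 of 38461 probes (0.265%) passed. Probe 2 gave 0.47 ± 0.28 (adjusted p = 0.533). The exact sign-flip test over the mares, two-sided, gave p = 0.25 for probe 1 (0.422 after adjustment over the 6 tests of 3 probes and 2 days), where 6 mares allow no p below 0.03125.

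The outcome at day 12 depended on mare 5. Without its arrays the effect was 0.84 ± 0.13 (SE, n = 5 mares, 95% interval 0.55 to 1.14, adjusted p = 0.0246) with probe 1 and 0.85 ± 0.12 (adjusted p = 0.0187) with probe 2. In that fit 302 probes (0.785%) passed, of which 217 (0.564% of those tested) were higher. Leaving out any other day 12 mare gave 0.35 to 0.43, with adjusted p-values of 0.572 to 0.776. Of these leave-out fits, the one without mare 3 had the most probes passing, 977 of 38461, but RSPO3 probe 1 was not among them. Each mare was left out in turn, and mare 5 is singled out because its RSPO3 values stand apart, so that the fit without it shows how far 1 animal sets the result and is no independent test.

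**Figure D2:**
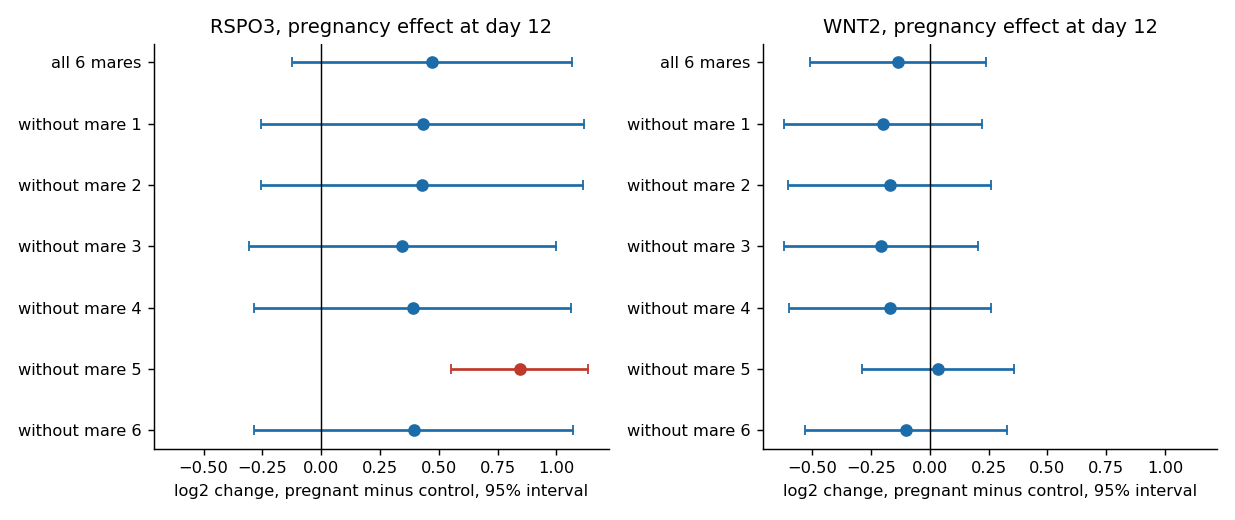
Pregnancy effect at day 12 (horizontal axis, log2 change with its 95% interval) for RSPO3 probe 1 and WNT2, with all 6 mares and with each mare left out in turn; red marks an adjusted p under 0.05. For RSPO3 the interval includes 0 unless mare 5 is left out, when it runs from 0.55 to 1.14, and for WNT2 it includes 0 in all 7 fits.

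At day 8 RSPO3 was higher in the pregnant sample of 5 of 5 mares, by a small margin in most. With the percentile taken over the probes detected on all arrays the count was 4 of 5, as mare 4 then stood at -0.03. The level of probe 1 in control samples was -2.48 in mare 1, -3.69 in mare 2, -3.10 in mare 4, -3.25 in mare 5 and -3.15 in mare 6 (mean -3.14 ± 0.43, SD, n = 5). In pregnant samples it was -2.44, -2.85, -3.07, -2.57 and -2.94 in the same order (mean -2.77 ± 0.26, SD, n = 5). The groups overlap, and mare 1 had the highest level of either group. The changes were 0.84 in mare 2 and 0.69 in mare 5, but 0.21 in mare 6, 0.04 in mare 1 and 0.03 in mare 4.

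The effect at day 8 was 0.36 ± 0.30 log2 (SE, n = 5 mares, 95% interval -0.29 to 1.01, limma adjusted p = 0.898). No probe of 38457 passed in that fit (0%), against 2243 with an unadjusted p under 0.05. The exact sign-flip test gave p = 0.0625, which is the smallest value 5 mares allow (0.188 after adjustment over the 6 tests). With the percentile over detected probes it was 0.1875 for probe 1, and for probe 2 it was 0.125 with that percentile and with normexp, where 4 of 5 mares were higher. As scaled here, 4.02% of all probes were higher in 5 of 5 mares. The standard error comes from a spread shared with day 12, and without mare 5 of day 12 the same effect had a standard error of 0.13 (adjusted p = 0.807).

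The pregnancy effect on RSPO3 was not shown to differ between the days. Day 12 minus day 8 was 0.11 ± 0.40 (95% interval -0.77 to 0.99, adjusted p = 0.943), in a fit where 0.0104% of probes passed. Without mare 5 of day 12 the difference was 0.48 ± 0.19 (adjusted p = 0.297). Over both days together, a contrast added after the data had been seen, 10 of 11 mares were higher as scaled here, as were 0.651% of all probes. The effect of both days was 0.42 ± 0.20 (adjusted p = 0.673, with 0.052% of probes passing) and the exact sign-flip test over the 11 mares gave p = 0.0654. Without mare 5 of day 12 it was 0.60 ± 0.09 (adjusted p = 0.0920).

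Both RSPO3 probes gave the same picture. They interrogate 1 transcript and are hybridised from the same RNA, so they are repeat measurements and not further replicates. Their levels correlated at r = 0.984 over the 22 arrays, and their changes at r = 0.987 over the 11 mares, of which mare 5 of day 12 alone spans most of the range. The sign was the same in 11 of 11 mares. The changes differed by a median of 0.09 and by at most 0.23 log2, in mare 5 of day 8 (0.69 with probe 1 and 0.46 with probe 2). In mare 5 of day 12, where the direction was opposite to the other mares, probe 2 read -1.46 against -1.39 with probe 1.

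**Figure D3:**
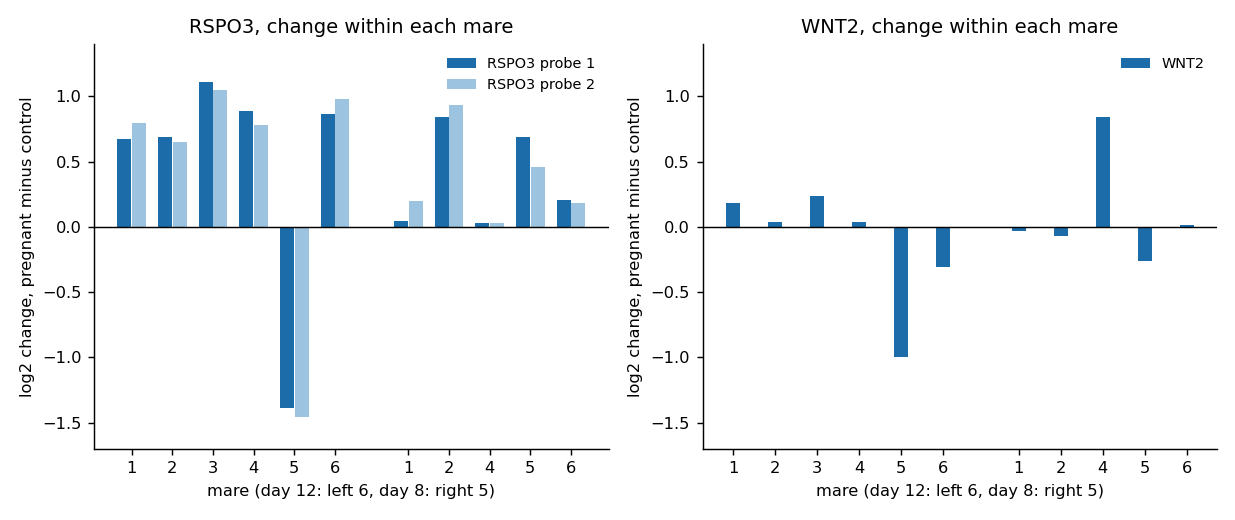
Change within each mare (vertical axis, log2, pregnant minus control) of both RSPO3 probes on the left and of WNT2 on the right, with the 6 mares of day 12 followed by the 5 of day 8. The RSPO3 bars of the probes match in sign in 11 of 11 mares, and the WNT2 bars stay within 0.35 of 0 in 9 of 11.

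The opposite change in mare 5 of day 12 was present in each scaling of the data. Its RSPO3 change with probe 1 was -1.39 as scaled here, -1.43 after quantile normalisation, -1.16 after normexp background correction and -1.14 in the authors' deposited value table. Its control array carried the highest level of both RSPO3 (-1.49) and WNT2 (-5.13) among all 22 arrays. Both arrays of this mare lay alone on 1 slide, and the control array had the highest share of spots well above background, 92.9%. Across 38203 probes the changes of mare 5 correlated with the mean of the other mares at r = 0.11, against 0.28 to 0.49 in mares 1, 2, 4 and 6 and -0.07 in mare 3. The part of slide, array or animal in the result was not tested. By slide, the mean RSPO3 change at day 12 was 0.89 on the slide of mares 1 and 3, 0.69 on that of mare 2, 0.88 on that of mares 4 and 6, and -1.39 on that of mare 5.

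RSPO3 lay towards the upper end of all changes in the other day 12 mares. In mares 1, 2, 3, 4 and 6 the change of probe 1 stood at percentiles 92.5 to 96.5 of all probes of the same pair, and in mare 5 at percentile 2.8. At day 8 it stood at percentile 95.9 in mare 2 and 94.0 in mare 5, at 80.3 in mare 6, and near the middle in mares 1 and 4 (58.8 and 54.4).

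WNT2 had levels that differed little between pregnant and control samples. In control endometrium at day 12 its lowest level was -6.63, the median -5.73 and the highest -5.13 (mean -5.83 ± 0.50, SD, n = 6). In pregnant endometrium at day 12 these were -6.40, -5.93 and -5.51 (mean -5.96 ± 0.38, SD, n = 6). The groups overlap almost fully. The changes were 0.18 in mare 1, 0.04 in mare 2, 0.23 in mare 3, 0.03 in mare 4, -0.995 in mare 5 and -0.31 in mare 6.

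The pregnancy effect on WNT2 at day 12 was -0.14 ± 0.17 log2 (SE, n = 6 mares, 95% interval -0.51 to 0.24, limma adjusted p = 0.788; exact sign-flip p = 0.625). Its sign was set by mare 5: without that mare it was 0.04 ± 0.15 (95% interval -0.29 to 0.36, adjusted p = 0.937). It also turned with normexp background correction, to 0.62 ± 0.41 (adjusted p = 0.339), where the median of all probes was 0.34. Mare 1 carried both numbers: under normexp its WNT2 change was 3.63 and its median over all probes 1.83, while the other 5 mares averaged 0.02 ± 0.28 (SD) for WNT2, with medians of -0.09 to 0.21.

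At day 8 the WNT2 level in control samples was -5.34 in mare 1, -6.61 in mare 2, -6.97 in mare 4, -6.32 in mare 5 and -6.52 in mare 6 (mean -6.35 ± 0.61, SD, n = 5). In pregnant samples it was -5.37, -6.68, -6.13, -6.59 and -6.51 in the same order (mean -6.26 ± 0.54, SD, n = 5). The levels of a mare were nearly equal except in mare 4, whose change was 0.84 and stood at percentile 99.0 of its probes. In that mare the lowest level called well above background also differed, at -9.62 on the control and -7.89 on the pregnant array. WNT2 lay 2.65 log2 above that limit on the control array and 1.76 on the pregnant array. The other 4 changes lay between -0.26 and 0.01. The effect was 0.10 ± 0.19 (95% interval -0.31 to 0.51, adjusted p = 0.972; exact sign-flip p = 0.9375), and without mare 4 of day 8 it was -0.09 ± 0.18. The difference between the days was -0.23 ± 0.25 (adjusted p = 0.767), and -0.062 ± 0.21 without mare 5 of day 12 (adjusted p = 0.924) and -0.048 without mare 4 of day 8. Over both days 6 of 11 mares were higher and 5 lower, with an effect of -0.02 ± 0.13 (95% interval -0.30 to 0.26, adjusted p = 0.981).

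WNT2 levels of the 2 samples of a mare went together. With each group's mean subtracted, the pregnant and the control level of a mare correlated at r = 0.62 over 11 mares, and at 0.76 without mare 5 of day 12. For RSPO3 probe 1 the same correlation was 0.20 with all 11 mares and 0.75 without mare 5. Both arrays of a mare shared a slide, so mare and slide cannot be told apart for mares alone on theirs. Mare 1 of day 8 had the highest WNT2 levels of that day, at intensities of only 14.2 (control) and 15.3 (pregnant). The lowest level called well above background was also highest on its arrays (-6.62 and -6.90). The part of array scaling in the agreement of the WNT2 levels was not tested. WNT2 and RSPO3 correlated in level at r = 0.64 over the 22 arrays, and at 0.56 without mare 5 of day 12. Over the day 12 arrays the value was 0.69, and over those of day 8 it was 0.60. The changes of WNT2 and RSPO3 correlated at 0.48 over 11 mares. This rests on mare 5 of day 12, since without it the value was -0.41.

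Between the days neither gene passed the test, although many probes did. In order from the highest, the mean RSPO3 level with probe 1 was -2.40 in day 12 pregnant, -2.77 in day 8 pregnant, -2.88 in day 12 control and -3.14 in day 8 control samples, and the ranges of all neighbours in that order overlap. In control samples RSPO3 differed by 0.26 ± 0.39 between day 12 and day 8 (adjusted p = 0.710), in a fit where 7.09% of probes passed. Without mare 5 of day 12 that value was -0.019. In pregnant samples the difference was 0.37 ± 0.23 with probe 1 (adjusted p = 0.249) and 0.40 ± 0.20 with probe 2 (adjusted p = 0.169), in a fit where 24.3% of probes passed.

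For WNT2 the order was day 12 control (-5.83), day 12 pregnant (-5.96), day 8 pregnant (-6.26) and day 8 control (-6.35), again with overlapping ranges between neighbours. Day 12 minus day 8 was 0.53 ± 0.31 in control samples (95% interval -0.15 to 1.21, adjusted p = 0.304) and 0.29 ± 0.26 in pregnant samples (adjusted p = 0.432). The control value was 0.035 with normexp, whose offset makes changes of a faint probe smaller, and 0.14 in the authors' deposited table. The arrays of each day had slides, scan days and scanner software of their own, so these and the day cannot be told apart.

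Few other genes of the pathway could be read. Of a list of Wnt pathway genes 7 were named on the array and 98 were not; 6 of the 7 were tested, and 0 of the 6 passed limma in any of the comparisons, in which 0% to 24.3% of all probes passed. At day 12, 1 of the 6 had an unadjusted p under 0.05, as had 12.5% of all probes. Each gene stands by its probe with the highest mean level. The median effect of the 6 was 0.18 at day 12 (all probes -0.02) and 0.12 at day 8 (all probes -0.01).

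Among the R-spondins, RSPO1 varied less within mares than RSPO3. The RSPO1 change lay between -0.15 and 0.11 in the 6 mares of day 12, with an effect of -0.08 ± 0.08 (95% interval -0.24 to 0.09), and between -0.14 and 0.30 in the 5 of day 8, with 0.0042 ± 0.08. It was higher in 1 of 6 and 1 of 5 mares, and at -0.14 in mare 5 of day 12 it did not share the large change of RSPO3 in that animal. RSPO2 was well above background on 4 of 22 arrays (1 of 5 day 8 control, 0 of 5 day 8 pregnant, 2 of 6 day 12 control and 1 of 6 day 12 pregnant arrays) and was not tested.

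CTNNB1, the gene of beta-catenin, stood at 0.22 ± 0.11 at day 12 (5 of 6 mares higher, adjusted p = 0.454) and 0.14 ± 0.12 at day 8 (3 of 5 higher). FRZB, a secreted antagonist that binds WNT ligands, stood at 0.14 ± 0.22 at day 12, with 5 of 6 mares higher and mare 3 at -1.24, and at 0.14 ± 0.24 at day 8. Its second probe gave 0.15 at both days. PRICKLE1, of the planar cell polarity branch, stood at 0.36 ± 0.15 at day 12 (5 of 6 mares higher, adjusted p = 0.345) and at -0.10 ± 0.16 at day 8 (2 of 5 higher, difference between days 0.46 ± 0.22, adjusted p = 0.492). The 1 lower mare of day 12 was mare 3 for CTNNB1 (-0.20) and PRICKLE1 (-0.24) as for FRZB, so these 5 of 6 counts share their exception. In mare 5 of day 12 CTNNB1 (0.47), FRZB (0.27) and PRICKLE1 (0.23) were higher in pregnancy while RSPO3 and WNT2 were lower. No gene for a Frizzled, LRP or LGR receptor, or for ZNRF3 or RNF43, was among the genes named here.

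**Figure D4:**
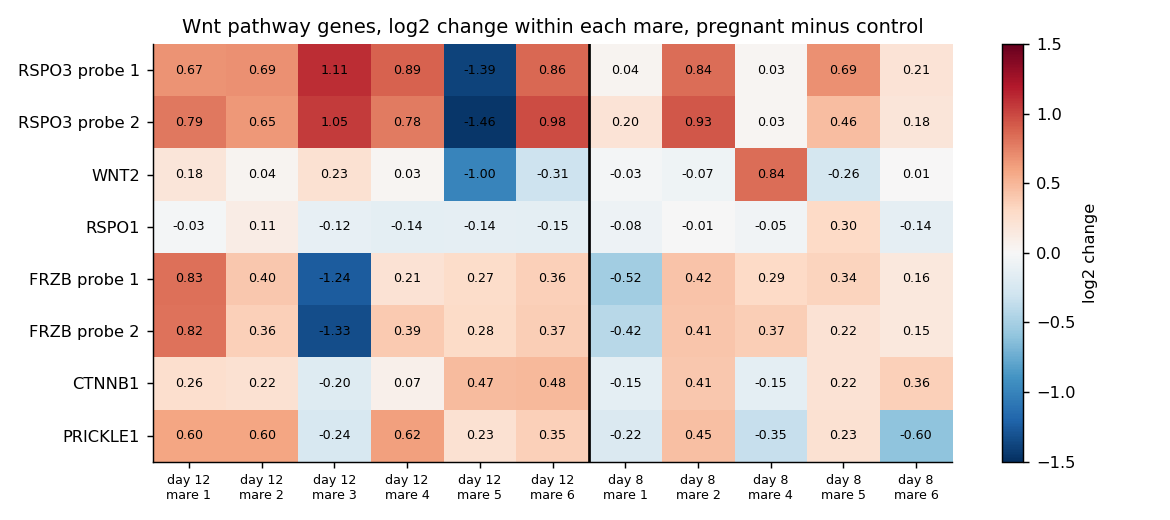
Log2 change within each mare (columns, day 12 then day 8; pregnant minus control) for the 8 probes of the 6 Wnt pathway genes that were tested (rows), with red higher and blue lower in pregnancy. RSPO3 is the row pair with the largest positive values at day 12 and turns to -1.39 and -1.46 in mare 5, FRZB turns in mare 3, and RSPO1 stays between -0.15 and 0.30.

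Markers of the cells in a biopsy varied beside these values. Of the listed markers, 2 of 8 for stroma (DCN and LUM), 1 of 6 for epithelium (ESRP1), 1 of 5 for endothelium (PECAM1) and 1 of 5 for smooth muscle (TAGLN) were named and tested. None of these was at background: each was well above it on 22 of 22 arrays. The summed level of the 2 stromal markers, in multiples of the array's 75th percentile, ranged from 13.9 to 19.2 in day 12 control, 12.7 to 22.04 in day 12 pregnant, 15.5 to 31.0 in day 8 control and 21.1 to 27.8 in day 8 pregnant samples. TAGLN ranged from 0.139 to 0.473 and 0.371 to 0.787 in the day 12 control and pregnant samples, and from 0.191 to 0.478 and 0.209 to 0.502 in those of day 8.

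As scaled here, TAGLN was higher in 6 of 6 mares at day 12 (0.90 on average), as were 2.25% of all probes. At day 8 it was higher in 5 of 5 (0.28), as were 4.02% of all probes. The day 8 TAGLN changes of mares 1, 4 and 5 were only 0.07, 0.0021 and 0.03. RSPO3 was higher in 5 of 6 mares at day 12 and 5 of 5 at day 8. Of all probes, 14% were higher in at least 5 of 6 mares at day 12. PECAM1 averaged 0.44 and 0.11, DCN 0.17 and 0.22, LUM 0.09 and 0.06, and ESRP1 -0.0044 and 0.09 at day 12 and day 8. The median effect at day 12 and day 8 was 0.12 and -0.02 for 4 of 5 macrophage and dendritic cell markers, -0.01 and 0.16 for 2 of 7 lymphocyte markers, and -0.29 and -0.07 for ITGA2B, the 1 of 4 blood and platelet markers that was named. None of the markers passed limma for pregnancy at either day. TAGLN, PECAM1, ITGA2B and 1 macrophage marker, CD14, had an unadjusted p under 0.05 at day 12, as had 12.5% of all probes. Between the days none passed in control samples. In pregnant samples TAGLN (0.84), PECAM1 (0.92) and 1 of 4 macrophage markers were higher at day 12, and ITGA2B (-0.84) and 1 of 2 stromal markers lower. In that fit 24.3% of all probes passed. In mare 5 of day 12, where RSPO3 was at -1.39, DCN changed by 0.02, LUM by 0.69, the stromal sum, most of which is DCN, by 0.08, TAGLN by 0.08, PECAM1 by -0.08 and ESRP1 by -0.15. The RSPO3 level correlated with TAGLN at r = 0.31 over the 12 day 12 arrays and 0.80 over the 10 of day 8, with DCN at 0.15 and 0.82, with LUM at -0.16 and 0.73, with PECAM1 at -0.08 and 0.74, and with ESRP1 at -0.10 and -0.49. In mare 3 of day 12 RSPO3 changed by 1.11. There the stromal sum changed by -0.56, PECAM1 by -0.32, TAGLN by 0.23 and ESRP1 by 0.36. The part of cell mixture in the RSPO3 values was not tested.

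The named genes whose pattern was most like WNT2 and RSPO3 were ranked among 603 named genes by Pearson's r, as a description over arrays that share mares, slides and scaling. For the level of WNT2 over the 22 arrays they were NR5A1, a nuclear receptor of steroid-making cells (0.81), ANAPC7, a subunit of the anaphase-promoting complex (0.75), the growth factor gene IGF1 (0.75), the cytokine gene TNF (0.72) and JPT2 (0.71). These values rest mainly on day 8, where they were 0.73 to 0.92, against 0.33 to 0.55 over the day 12 arrays. At day 8 the faint WNT2 level was highest on the arrays of mare 1 (-5.34 control, -5.37 pregnant). The lowest level called well above background was also highest there (-6.62 and -6.90). WNT2 was lowest on the control array of mare 4 (-6.97), where that limit was lowest too (-9.62). The part of array scaling in these correlations was not tested. For the level of RSPO3 they were the chemokine receptor gene CCR2 (0.77), NOS2, the inducible nitric oxide synthase (0.75), the carbonic anhydrase gene CA12 (0.68), the ephrin gene EFNB3 (0.66) and WNT2 itself (0.64). Over the day 12 and day 8 arrays these were 0.82 and 0.62 for CCR2, 0.78 and 0.56 for NOS2, 0.71 and 0.33 for CA12, 0.75 and -0.14 for EFNB3, and 0.69 and 0.60 for WNT2. Without mare 5 of day 12 CA12 stood at 0.55, EFNB3 at 0.53 and WNT2 at 0.56. With all arrays WNT2 was thus the fifth nearest of 603 genes in level to RSPO3.

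For changes within the 11 mares, those most like WNT2 were DDIT4 (0.83), PPIB (0.83), CA12 (0.74), SLC10A7 (0.74) and LYRM2 (0.69). Those most like RSPO3 were YTHDC1, a reader of methylated RNA (0.82), EFNB3 (0.80), ABCE1, a ribosome recycling factor (0.79), APEX2 (0.76) and OR2T1B (0.76). Without mare 5 of day 12 the values for RSPO3 were 0.65, 0.29, 0.66, 0.67 and 0.43 in the same order. DDIT4 and PPIB stayed at 0.88 and 0.80 with WNT2 without that mare, whereas CA12, SLC10A7 and LYRM2 stood at 0.36, 0.44 and 0.29.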

How the data were processed

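Each array's scanner output holds spot intensity on a linear scale, background-subtracted and detrended by the authors with Agilent Feature Extraction. The submitters' processing notes name version 10.5.1.1, which the headers of the 12 day 12 arrays also give, whereas the 10 day 8 arrays have 10.7.3.1 per the file headers. The authors' deposited value table was read as log2 (r of 0.986 to 0.997 with the log2 intensity). How it was scaled and centred is not stated, and it was used as an alternative only.

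For the values given here, log2 intensity was taken minus that of the array's 75th percentile. On each array 3 to 152 non-uniform outlier spots were dropped, and spots of a probe averaged. Probes well above background on at least 5 of 22 arrays were tested with limma 3.58.1 (R 4.3.3), with Benjamini-Hochberg adjustment over all probes and a threshold of 0.05. Pregnancy effects came from 1 fit of 22 arrays with mare within day as a block. Day contrasts came from the 11 control or the 11 pregnant arrays. A gene stands by its probe with the highest mean level unless both are given. Sign-flip tests enumerated all signs. Scripts were tested on simulated data.

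Symbols came from RefSeq accessions in a horse gene table, used for names only, and covered 1394 probes; 42208 had none. The labels pair the samples of a mare: deviations of same-mare arrays from their groups had r = 0.307 to 0.744 on day 12 and 0.289 to 0.729 on day 8, and the own mare correlated best in 11 of 11 pairs. Both arrays of each pair shared a slide. For mares 2 and 5 of day 12 and mare 4 of day 8, alone on theirs, this cannot tell mare from slide. The members, gene lists and the rule for like genes (the 5 highest r in level and in change) were chosen with earlier results of these data known.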

Additional observations from a re-analysis of the deposited data

Results flagged for a closer look

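Dixon's test on 18 sets of levels or changes, which by chance marks about 1 set in 20, singled out 3 values. The RSPO3 change of mare 5 at day 12 was the lowest of its 6 mares, -1.39 with probe 1 (gap over range 0.827) and -1.46 with probe 2 (0.842). These are 2 readings of the same RNA. The WNT2 change of mare 4 at day 8 was the highest of its 5 mares, 0.84 (gap over range 0.75). In the authors' deposited table that WNT2 change was 0.41, and with normexp background correction 0.19. The normexp offset of 50 units, against WNT2 intensities of 9.08 to 44.1 units, by itself makes such changes smaller. The RSPO3 change of the same mare 4 was 0.03.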

How the results depend on the processing

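Of 10 pregnancy or day results of RSPO3 and WNT2, 1 crossed the threshold under any alternative, RSPO3 at day 12 without mare 5. With 1 mare left out in turn, RSPO3 ranged from 0.35 to 0.84 at day 12, 0.24 to 0.44 at day 8, -0.016 (without mare 3 of day 12) to 0.48 for the difference, -0.019 (without mare 5 of day 12) to 0.47 between controls and 0.21 to 0.46 between pregnant samples. WNT2 ranged from -0.21 to 0.036 (without mare 5), -0.088 (without mare 4) to 0.19, -0.32 to -0.048, 0.37 to 0.78 and 0.19 to 0.52, and over both days from -0.11 to 0.067 (without mare 5 of day 12; 0.0017 and 0.026 without mares 2 and 5 of day 8). Normexp was run with an offset of 50 units, on the median spot signal because the files hold no mean signal. With it WNT2 turned to 0.62 at day 12, -0.0074 at day 8 and 0.63 for the difference. The median of all probes was then 0.34, -0.03 and 0.38, and relative to it RSPO3 at day 12 was 0.31 and WNT2 0.29. Mare 1 of day 12 alone had a median of 1.83 there, and without it the mean change was 0.31 for RSPO3 and 0.02 for WNT2. WNT2 between pregnant samples was -0.0018 in the authors' deposited table. The causes were not tested. Without the replicate block the pregnancy effects kept their size, with adjusted p = 1.00 for RSPO3 at day 12. With the mare number as a replicate block, over the mares numbered on both days, control samples differed by 0.47 (RSPO3, adjusted p = 0.522) and 0.69 (WNT2, adjusted p = 0.209), and pregnant samples by 0.45 and 0.38. The faint WNT2 signal limits what its changes can show.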

Other observations

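In mare 5 of day 12 all of the genes ranked above as most like RSPO3 or WNT2 were lower in pregnancy, TNF the least so at -0.17. The median change of all probes in that mare was -0.12. CA12, which encodes a carbonic anhydrase of the cell surface, changed by -2.47 log2 in that mare, the ephrin gene EFNB3 by -1.21, the chemokine receptor gene CCR2 by -1.14, YTHDC1 by -0.99 and ANAPC7 by -0.89. Since likeness was ranked over all mares, this mare took part in choosing them, and the values are a description of 1 animal.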
